A study of Vitis vinifera with 66 samples.

Results

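The 150 genes described here are those with the lowest levels, relative to unstressed berries, in the berries of grapevines that had gone through a summer of drought and heat, as measured at harvest. For each gene, L was the mean of log2(CPM + 1) over the 6 harvest (T5) libraries of the stressed vines minus the same mean over the 6 harvest libraries of the unstressed vines, where CPM is the read count of a gene scaled to the library's total. Of 29537 gene IDs in the count table, 11959 averaged 5 CPM or more in the unstressed harvest berries, and the 150 with the lowest L were taken from these. The members were thus chosen by their measured harvest levels, so their fall at harvest is a description and was not tested. The question put to the other libraries is whether the same genes were already lower during the drought and heatwave and in the recovery that followed.

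The berries came from potted, grafted vines of 1 clone of the white cultivar Sauvignon Blanc (Vitis vinifera), kept in a pair of plastic tunnels. Control vines (C) and vines waterlogged in spring around bud break (F) stood in one tunnel with full irrigation. Vines given the summer stress, either without spring flooding (H) or after it (FH), stood in the other, where water was cut to 30% of field capacity and the air was then set 5 °C warmer. Berries were sampled at 46 days after anthesis (T0), at 55 days under drought (T1), at 59 days within the heatwave (T2), at 61 days at its end (T3), at 70 days in recovery (T4) and at 74 days at harvest (T5), with 3 libraries in each of 22 groups and with C and F alone at T0. The summer stress and the tunnel coincide and cannot be told apart. Whole berries were used, so a lower level can reflect fewer cells of a type or less RNA per cell, and these cannot be told apart either.

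The 66 libraries held 15927671 to 24150978 counts, and the 12 at T5 held 21033335 to 24150978, so that counting error was smaller than the spread between replicates. T5 F replicates 1 and 2 were the closest replicates of any group, their counts differing by a chi-square of 1.87 for each degree of freedom where the next closest pair had 8.97, and they were kept as separate libraries. ACO1 (VIT_11s0016g02380), an ACC oxidase gene of ripening berries, rose in C from 0.0931 ± 0.0618 CPM at T0 to 68.5 ± 19.6 CPM at T4 (SD, n = 3), and 16 of the 18 auxin signaling genes that the study lists were called lower in C between these times (edgeR, adjusted p under 0.05 and at least 1.5-fold), as were 28.3% of the 19553 genes tested. The study drew up that list from the same samples.

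Grape berries enter ripening at veraison, when they soften and accumulate sugar. Auxin, high in the young berry, delays this step and its response genes decline around it. Gibberellins, which promote growth of the young berry, are inactivated by GA2-oxidases. The files and the reference at hand pair few of the 150 IDs with a function. Among those the study annotates are an auxin response factor (ARF, VIT_15s0046g00290), an auxin efflux carrier (VIT_17s0000g02420) and a GA2-oxidase (VIT_10s0003g03490). It measured VIT_18s0072g00160 and VIT_08s0040g01230 by qPCR. The other members described here are named by ID alone.

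The study's primer pairs mark the transcripts of these 2 qPCR targets, given here because they tie these IDs to sequence. They are printed 5′ to 3′ in lower case, with no part in capitals. They lie in genes whose IDs place them on chromosomes 18 and 8.
VIT_18s0072g00160 forward: ggcatcaaagatcaaaccatcaacg
VIT_18s0072g00160 reverse: acccaactaagagcagaagatgaga
VIT_08s0040g01230 forward: gatgaagggtatgtatggagaggct
VIT_08s0040g01230 reverse: ggctcctctgtactcaaacaagaac

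At harvest L ran from -2.60 to -1.10 with a median of -1.29, where the median over the 11959 genes was -0.01. The rule left out genes with a mean below 5 CPM in unstressed harvest berries. The mean level of the members there was 5.3 to 1530 CPM, with a median of 34.7 CPM against 31.4 CPM over the 11959 genes. In stressed berries it was 0.984 to 758 CPM, with a median of 13.6 CPM. In 115 of the 150 every stressed library was below every unstressed one, as in 13.9% of the 11959 genes, a count that the choice of genes itself raises. The median was -1.49 for H minus C and -1.21 for FH minus F on the log2(CPM + 1) scale. L is the mean of these differences, so the choice of genes itself lowers both medians. The last genes inside the limit were VIT_18s0072g01010, at 303 CPM in unstressed and 144 CPM in stressed berries, and VIT_18s0001g07810, at 1530 and 758 CPM. The first outside were VIT_08s0007g06140, at 15.9 and 7.39 CPM, and VIT_11s0118g00490, at 25.6 and 11.8 CPM.

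The gene with the lowest L, VIT_16s0098g01170, was at 44.6, 31.0 and 34.4 CPM in the C libraries and 13.2, 13.8 and 28.6 CPM in the F libraries at T5. It was at 6.31, 2.76 and 0.742 CPM in H and at 1.55, 4.82 and 8.22 CPM in FH, so the groups did not overlap. VIT_07s0005g02660, the next lowest, was at 46.7, 101 and 61.8 CPM in C and 29.2, 25.3 and 84.3 CPM in F, against 12.5, 18.7 and 6.35 CPM in H and 6.30, 17.5 and 12.1 CPM in FH. The other 8 of the 10 lowest were VIT_12s0134g00030, VIT_08s0040g01230, VIT_04s0023g02900, VIT_02s0087g00750, the ARF gene VIT_15s0046g00290, VIT_08s0007g02380, VIT_04s0043g00840 and VIT_08s0007g04570. Among them, VIT_12s0134g00030 overlapped at harvest, since FH replicate 3 held 47.4 CPM where the lowest unstressed library held 38.7 CPM. VIT_04s0023g02900, VIT_02s0087g00750, VIT_04s0043g00840 and VIT_08s0007g04570 overlapped at harvest as well. For VIT_04s0043g00840 the highest stressed library held 14.9 CPM and the lowest unstressed one 13.6 CPM.

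The most abundant member, VIT_18s0001g07810, was at 1350, 1380 and 1680 CPM in C and 1600, 1500 and 1650 CPM in F at T5. It was at 1050, 800.0 and 825 CPM in H and at 760.0, 295 and 820.0 CPM in FH, with FH replicate 2 the lowest library. It was followed by VIT_14s0083g00960, with group means of 1330 CPM in C and 470.0 CPM in FH at T5, and by VIT_13s0067g03660, with 705 and 255 CPM. The next 7 were VIT_00s0179g00210, VIT_07s0031g00730, VIT_05s0020g03150, VIT_07s0031g03040, VIT_04s0023g03350, VIT_07s0005g00260 and VIT_05s0102g00480, whose C means at T5 were 462 to 656 CPM.

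Averaged over the 150 genes, the level overlapped between stressed and unstressed berries through the drought and the heatwave, and by harvest the libraries were apart. In C the mean of log2(CPM + 1) was 4.40 ± 0.10 at T0, 4.06 ± 0.07 at T1, 3.94 ± 0.16 at T2 and 4.06 ± 0.13 at T3, and then 4.85 ± 0.27 at T4 and 5.54 ± 0.05 at T5 (SD, n = 3). In H it was 3.99 ± 0.09, 4.03 ± 0.08, 3.88 ± 0.23, 4.14 ± 0.19 and 4.01 ± 0.34 from T1 to T5. Between T3 and T5, 142 members rose in C and 133 in F, with median changes of 1.44 and 0.81 on this scale. In H 98 rose, with a median of 0.28 near the 0.21 of the 11959 genes, and in FH 49 rose, with a median of -0.31 against 0.2. The F libraries reached 5.01, 4.98 and 5.48 at T5, and the FH libraries 3.86, 3.88 and 4.16. The T5 libraries are those of the rule, so the choice of genes itself sets them apart and bears on every change up to T5. These values are descriptions.

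**Figure D1:**
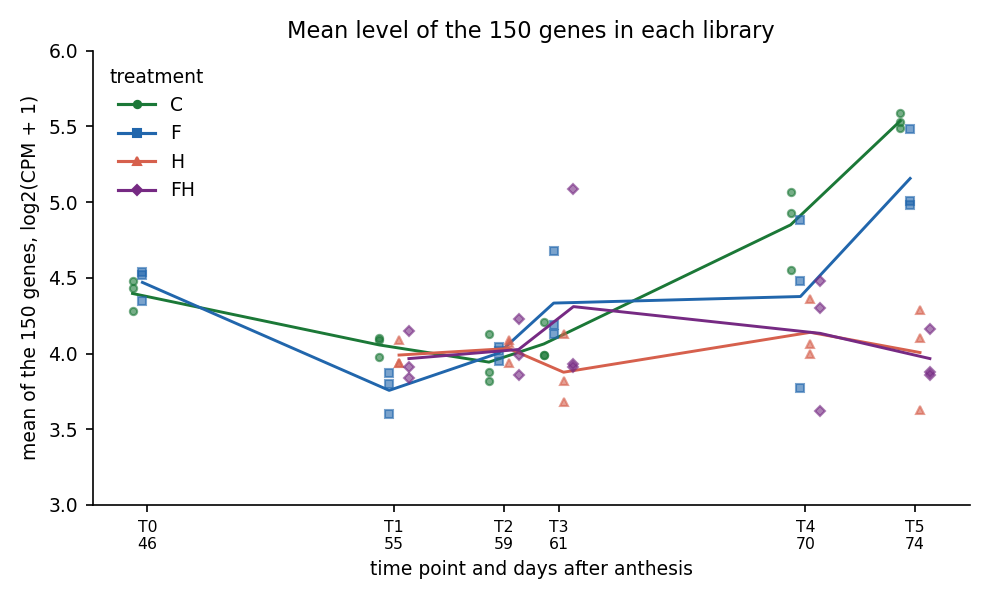
Mean of log2(CPM + 1) over the 150 genes (vertical axis) against time point and days after anthesis (horizontal axis), with a point for each of the 66 libraries and a line through the group means, coloured by treatment. C rises from 4.06 at T3 to 5.54 at T5 while H ends at 4.01. T5 values chose the genes.

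Single libraries stood apart at T3 and T4. T3 FH replicate 3 was at 5.09 where the other FH libraries were at 3.91 and 3.93, and T3 F replicate 3 was at 4.68 where the others were at 4.13 and 4.19. At T4, F replicate 3 (3.77) and FH replicate 2 (3.62) were the lowest 2 of the 12 libraries, and the 10 most abundant genes took 12.7% and 17% of their counts, against 8.95 to 12.6% in the T4 C libraries. Counts of genes called at T3 and T4 are given below with single libraries left out as well. Changes over time, and the medians of FH over F and of the interaction at T4, are given with all libraries only.

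Between T4 and T5 the median change was 0.68 in unstressed and -0.14 in stressed berries on the log2(CPM + 1) scale, where it was 0.12 in both for the 11959 genes. Of the 150 genes, 81 rose in unstressed and fell in stressed berries, 59 rose in both and 10 fell in both. In 118 genes the rise in unstressed berries was larger than any fall in stressed ones. That count includes the 59 that rose in both and had no fall. In C, 106 of the 150 had their highest group mean at T5 and 31 at T0, against 34.9% and 23.7% of the 11959 genes. In H, 49 had their highest mean at T1, 42 at T4 and 22 at T5, against 39.0%, 12.2% and 28.3% of the 11959 genes. In FH, 47 had it at T3, 37 at T1 and 30 at T5, against 9.57%, 29.7% and 42.3%. These counts use the libraries of the rule and are descriptions.

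**Figure D2:**
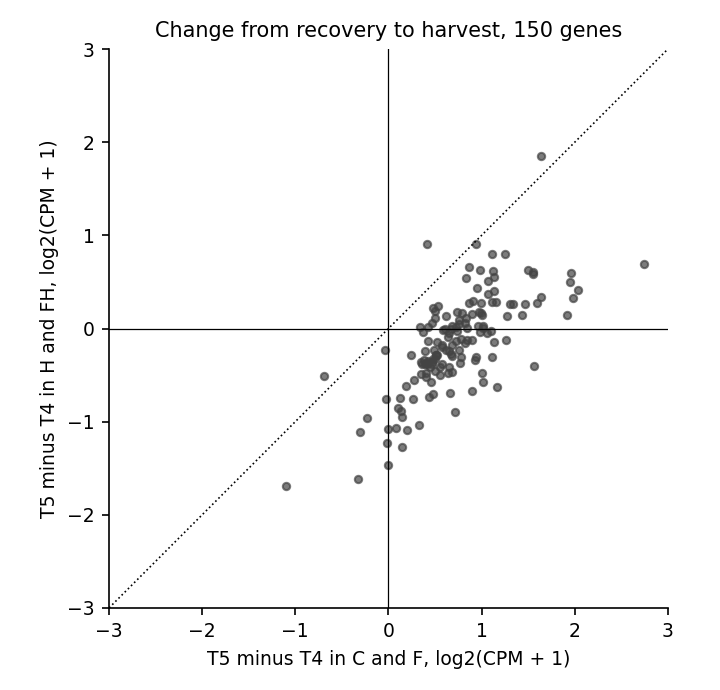
Change from T4 to T5 in log2(CPM + 1) in the unstressed vines C and F (horizontal axis) and in the stressed vines H and FH (vertical axis), a point for each of the 150 genes, with the dotted line marking equal change. Most points lie right of 0, with medians of 0.68 and -0.14.

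The rise in control berries (C) began before harvest. In F the median change from T3 to T4 was small, but single F libraries weigh on it. From T3 to T4 the median change in log2(CPM + 1) was 0.75 in C, with 136 of the 150 genes higher. In F it was 0.11, with 88 higher, where the median over the 11959 genes was 0.06. F replicates 1 and 2 had means over the 150 genes of 4.13 and 4.19 at T3 and of 4.48 and 4.88 at T4. F replicate 3 was the highest F library at T3 (4.68) and the lowest at T4 (3.77). Whether F and C differed in when they rose was not tested. In C, 71 of the 150 genes were higher and 25 were lower at T4 than at T0 (edgeR, adjusted p under 0.05 and at least 1.5-fold), 47.3% and 16.7% of them, where 30.8% and 18.9% of the 11959 genes were called. The median log2 fold change was 0.78, against 0.21. These libraries are not those of the rule, although the T4 C libraries also enter the comparisons at T4. DESeq2 gave 71 and 25 as well.

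Members with a large rise were VIT_07s0005g00260, from 49.3 CPM at T0 to 407 CPM at T4 in C (log2 fold change 3.25, SE 0.38, adjusted p = 1.3e-09, edgeR), and VIT_13s0067g03660, from 107 to 524 CPM (2.50, SE 0.39, adjusted p = 4.7e-07). VIT_12s0134g00030 went from 0.0183 to 22.3 CPM, and VIT_00s0324g00050 was at 0 in all 6 T0 libraries and at 23.7 CPM in C at T4. The genes that fell had been high in the young berry. The ARF gene VIT_15s0046g00290 was at 122, 139 and 190 CPM in C at T0 and at 2.91, 4.13 and 4.63 CPM at T4 (log2 fold change -5.06, SE 0.93, adjusted p = 9.4e-06, edgeR), and it stood at 11.9, 11.1 and 12.5 CPM at T5. VIT_05s0094g00920 fell from 128 to 18.5 CPM, and VIT_13s0067g00990 from 93.6 to 31.7 CPM.

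Whether the genes were lowered already under the stress was tested as the mean of H and FH over the mean of C and F at each time (edgeR, p-values adjusted over 19553 genes). All 150 passed the filter on low counts. A gene is called when its adjusted p is below 0.05 and its change is 1.5-fold or larger. Over T1 to T4, 100 of the 150 were called at no time point. At T2 to T4, 24 genes were called lower at least once and 24 were called higher at least once, and 0 were called in both directions (edgeR). Only VIT_13s0067g00990 was called lower at T2, T3 and T4 alike, while 8 genes were lower and 13 were higher at both T2 and T3. Calls combined over several times were not counted over the 11959 genes. These counts therefore describe the members and are not set against other genes.

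**Figure D3:**
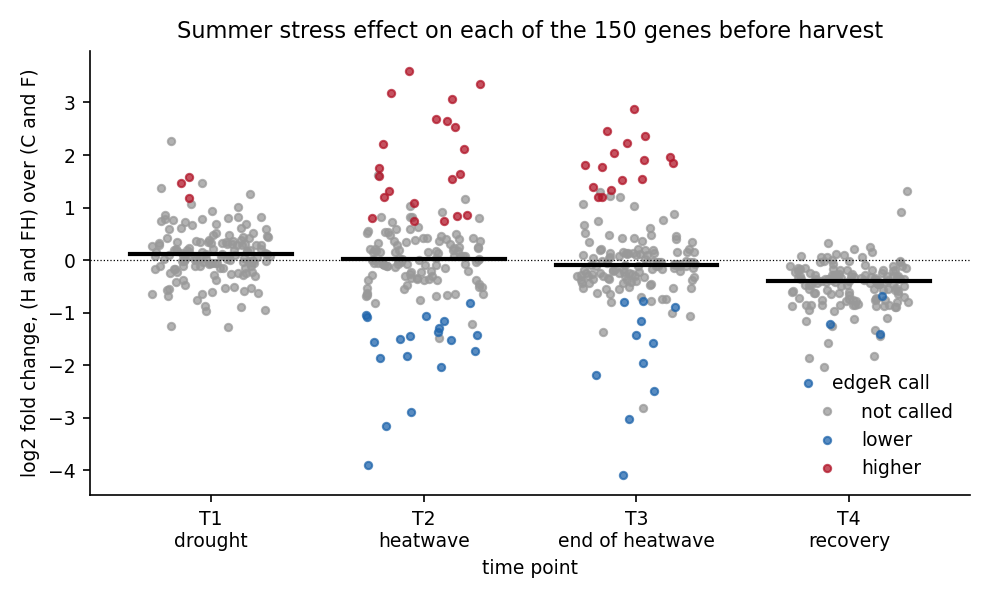
Log2 fold change of the stressed over the unstressed vines (vertical axis, edgeR) for each of the 150 genes at T1 to T4, with genes called lower in blue, genes called higher in red and the median as a black bar. Called genes go both ways at T2 and T3, and at T4 the median is -0.40 with 4 genes called lower.

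At T1, under drought and before the heat, the number called lower was 0 (edgeR, with 6 at an unadjusted p below 0.05, and DESeq2 also called 0) and 3 were called higher, where 0.753% and 0.995% of the 11959 genes were called. At that unadjusted p, 6 members (4%) were lower and 18 (12%) higher in the same edgeR test, against 10.6% and 9.72% of the 11959 genes. The median log2 fold change was 0.11. The 3 higher genes were VIT_04s0023g02900, VIT_05s0029g00480 and VIT_11s0016g03170, the last named after its values were seen. VIT_04s0023g02900 was at 4.57, 3.09 and 1.81 CPM in C and 1.07, 0.866 and 1.18 CPM in F, against 5.68, 8.29 and 5.65 CPM in H and 5.73, 4.23 and 3.64 CPM in FH (log2 fold change 1.58, SE 0.42, adjusted p = 0.028, edgeR). That call was lost when C replicate 2 or 3, F replicate 2 or 3, H replicate 2 or FH replicate 1 was left out. Without T1 C replicate 3, F replicate 2, F replicate 3 or FH replicate 1, in turn, 1 gene was called higher, and without H replicate 3, 1 was called lower.

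At T2, within the heatwave, 19 genes were called lower and 21 higher, 12.7% and 14% of the 150, where 7.89% and 7.44% of the 11959 genes were called. The median log2 fold change was 0.03, with quartiles of -0.37 and 0.49. In 11 genes every stressed library was below every unstressed one and in 8 every one was above, 7.33% and 5.33% of the members against 5.74% and 4.22% of the 11959 genes. At this time the genes lowered at harvest thus moved both ways in about equal number.

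The most significant of the lower genes at T2 were VIT_05s0094g00920, VIT_01s0010g01850 and VIT_17s0000g00710. VIT_05s0094g00920 was at 40.6, 11.4 and 10.3 CPM in C and 22.1, 12.8 and 12.1 CPM in F, against 0.93, 0.70 and 0.0524 CPM in H and 4.09, 2.85 and 0.595 CPM in FH (log2 fold change -3.89, SE 0.52, adjusted p = 9.1e-07, edgeR). The groups did not overlap, and the stressed berries held a small part of the unstressed level. VIT_17s0000g00710 was at 76.4 to 131 CPM in C and 92.4 to 137 CPM in F, against 23.3 to 47 CPM in H and 37.0 to 61.9 CPM in FH (log2 fold change -1.55, SE 0.26, adjusted p = 2.4e-05, edgeR). VIT_01s0010g01850 fell by 1.07 on the log2 scale (SE 0.17, adjusted p = 9e-06, edgeR). VIT_15s0048g02970, one of the 3 lower genes with the lowest p at T3, was already called at T2, at 21.9 to 29.1 CPM in C and 0.681 to 1.69 CPM in H.

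The higher genes at T2 were led by VIT_00s0301g00100, VIT_08s0007g02360 and VIT_02s0025g00700. VIT_08s0007g02360 was at 2.65, 5.33 and 4.74 CPM in C and 4.90, 11.3 and 5.02 CPM in F, against 52.0, 55.4 and 75.6 CPM in H and 34.3, 98.0 and 84.1 CPM in FH (log2 fold change 3.60, SE 0.53, adjusted p = 4.2e-06, edgeR). Its harvest values ran the other way, from 22.6 to 110 CPM in the unstressed and 5.66 to 23.6 CPM in the stressed libraries. VIT_00s0301g00100 had group means of 5.08 CPM in C and 36.0 CPM in H at T2, and of 57.8 and 14.7 CPM at T5. VIT_02s0025g00700 had 0.504 and 5.61 CPM at T2, and 6.25 and 1.20 CPM at T5.

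Annotated members were among those higher in the stressed berries at T2 and T3 and lower at harvest. The GA2-oxidase VIT_10s0003g03490, which inactivates gibberellins, was at 0.789, 1.35 and 5.55 CPM in C and 3.21, 1.81 and 1.67 CPM in F at T2, against 18.5, 33.5 and 8.70 CPM in H and 2.75, 22.8 and 6.59 CPM in FH. It was called higher at T2 (log2 fold change 2.64, SE 0.64, adjusted p = 0.0019, edgeR) and at T3 (2.46, SE 0.63, adjusted p = 0.011), where the FH libraries held 33.3 to 50.5 CPM. At T5 it was at 9.07, 20.7 and 6.66 CPM in C and 3.66, 3.28 and 18.3 CPM in F. The H libraries held 1.45, 3.14 and 3.11 CPM and the FH libraries 1.19, 1.02 and 1.52 CPM. The lowest F libraries thus lay just above the highest H ones. The qPCR target VIT_18s0072g00160 was likewise called higher at T2 and T3. At T3 it was at 17.7 to 28.4 CPM in FH and 3.30 to 4.46 CPM in F. At T5 it stood at 14.6 to 16.8 CPM in C and 5.39 to 18.3 CPM in F. The H libraries then held 1.67 to 3.51 CPM and the FH libraries 2.70 to 9.18 CPM, so unstressed and stressed libraries overlapped.

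The auxin genes did otherwise. The efflux carrier VIT_17s0000g02420, which moves auxin out of cells, was called lower at T3 (log2 fold change -4.09, SE 0.79, adjusted p = 0.00088, edgeR). It was at 2.85, 1.66 and 1.29 CPM in C and 0.098, 1.29 and 5.47 CPM in F, against 0, 0.0533 and 0.117 CPM in H and 0.0503, 0.0512 and 0.522 CPM in FH, so the contrast rests on few counts. The ARF gene VIT_15s0046g00290, a transcription factor of the auxin response, was called at no time from T1 to T4, with log2 fold changes of 1.26, -0.11, 0.34 and -0.85. Of the 18 auxin signaling genes listed by the study, 13 reached 5 CPM in unstressed berries at harvest and 11 of these had L below 0, with a median of -0.58, where 51.0% of the 11959 genes were below 0. In that list 4 genes were called lower at T2 and 4 at T3 (edgeR), where 9.09% and 2.53% of the 19553 genes tested were.

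The gibberellin and trehalose lists of the study hold few members. Of 3 gibberellin genes tested, 2 were called higher and 1 lower at T2. The 4 trehalose synthesis genes include 0 members but had L below 0 in all 4, with a median of -0.67, where 51.0% of the 11959 genes were below 0. All 4 were called higher at T2 and 2 at T3, where 9.09% and 2.81% of the 19553 genes tested were called higher. At T2, 9.09% of them were also called lower. The study drew up these lists from the same samples, and their direction is therefore not independent evidence.

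At T3, at the end of the heatwave, 11 genes were called lower and 16 higher, 7.33% and 10.7% of the members, where 2.34% and 2.61% of the 11959 genes were called. The median log2 fold change was -0.09. In 5 genes every stressed library was below every unstressed one and in 6 every one was above, as in 2.68% and 1.1% of the 11959 genes. The lower genes with the lowest p were VIT_13s0067g00990, VIT_15s0048g02970 and the auxin efflux carrier. VIT_15s0048g02970 was at 21.1, 31.8 and 26.7 CPM in C and 23.3, 31.4 and 68.5 CPM in F, against 2.83, 4.05 and 2.58 CPM in H and 5.73, 0.615 and 8.12 CPM in FH (log2 fold change -3.03, SE 0.53, adjusted p = 0.00029, edgeR). VIT_13s0067g00990 had group means of 19.8 CPM in C and 3.09 CPM in FH. Its F libraries were at 7.99, 21.5 and 32.3 CPM and its H libraries at 3.99, 9.87 and 8.61 CPM, so unstressed and stressed libraries overlapped.

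The higher genes with the lowest p at T3 were VIT_08s0007g02360, VIT_18s0001g09550 and VIT_04s0023g02900. VIT_18s0001g09550 had group means of 5.12 CPM in C, 7.90 CPM in F, 18.1 CPM in H and 32.3 CPM in FH (log2 fold change 2.03, SE 0.38, adjusted p = 0.00059, edgeR). Without FH replicate 3, the library with the high mean over the 150 genes, 20 genes were called lower in place of 11, and without F replicate 2, 9 were called higher in place of 16. Both counts are given without the share of all genes called in the same fit.

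**Figure D4:**
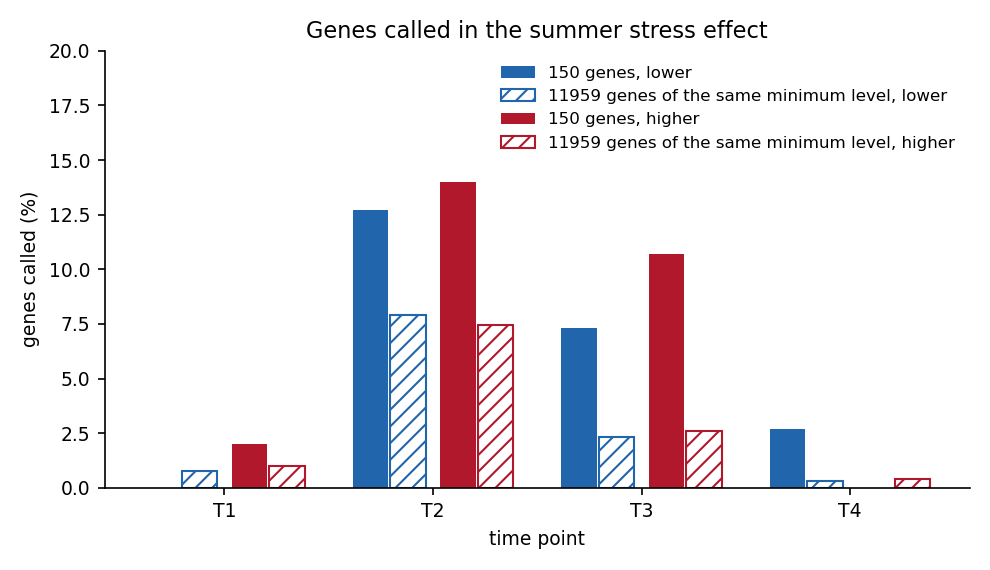
Percent of genes called lower (blue) and higher (red) in the stressed over the unstressed vines at T1 to T4, for the 150 genes (filled bars) and for the 11959 genes of the same minimum level (hatched bars). At T2 the members were called in 12.7% and 14% and at T4 in 2.67% and 0%.

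At T4, in recovery, the direction of harvest was present in most members but passed the test in few. The log2 fold change was negative in 137 of the 150 genes, with a median of -0.40 and a lower quartile of -0.72, where 50.4% of the 11959 genes were negative with a median of 0. Called lower were 4 genes, 2.67% of the members, where 0.334% of the 11959 genes were called. Called higher were 0, against 0.393% (edgeR, with 1 or 0.667% at an unadjusted p below 0.05 against 10.3%, and DESeq2 also called 0). At an unadjusted p under 0.05, 59 members were lower, 39.3% of them, against 9.04% of the 11959 genes. In 1 gene every stressed library was below every unstressed one, and in 0 every one was above, where 0.477% and 0.351% of the 11959 genes did so.

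The count of 4 depends on single libraries. It was 0 without C replicate 2, C replicate 3, H replicate 1, H replicate 3, FH replicate 2 or F replicate 1, each in turn, 1 without F replicate 2, 2 without H replicate 2, 6 without C replicate 1, 7 without FH replicate 3, 14 without FH replicate 1 and 20 without F replicate 3. DESeq2 called 13, and it was 0 with a replicate block and 0 when the T4 libraries alone were fitted, so each of the calls below is lost under these fits. Of 12 fits with a library left out, 6 kept the call of VIT_12s0134g00030, 4 that of VIT_13s0067g00990, 3 that of VIT_19s0015g01890 and 4 that of VIT_08s0040g01230. The counts under these other fits are not set against the share of all genes called in the same fit. Whether a higher count is particular to the members was therefore not tested. The median log2 fold change stayed between -0.53 (without F replicate 3) and -0.30, and it was -0.36 without FH replicate 2.

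The 4 genes called lower at T4 were VIT_12s0134g00030, VIT_13s0067g00990, VIT_19s0015g01890 and the qPCR target VIT_08s0040g01230. VIT_12s0134g00030 was nearly silent up to T3, with group means of 0 to 0.862 CPM. At T4 it was at 7.83, 32.4 and 26.5 CPM in C and 95.4, 38.1 and 121 CPM in F, against 2.02, 11.2 and 4.87 CPM in H and 30.5, 4.69 and 1.96 CPM in FH (log2 fold change -2.33, SE 0.50, adjusted p = 0.018, edgeR). It was detected late, and its 3 highest T4 libraries were all F.

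VIT_13s0067g00990 was at 26.1, 41.4 and 27.6 CPM in C and 23.3, 31.0 and 21.4 CPM in F at T4, against 10.1, 10.0 and 16.7 CPM in H and 18.6, 3.34 and 13.5 CPM in FH (log2 fold change -1.22, SE 0.31, adjusted p = 0.036, edgeR), and its groups did not overlap. It had been lower since T2 (-1.43, SE 0.31, adjusted p = 0.00055). VIT_19s0015g01890 was at 64.8, 51.0 and 54.0 CPM in C and 50.5, 57.1 and 29.3 CPM in F, against 23.5, 30.5 and 33.7 CPM in H and 47.5, 22.3 and 27.4 CPM in FH (-0.69, SE 0.18, adjusted p = 0.039). Its unstressed and stressed libraries overlapped through F replicate 3, which lay below H replicates 2 and 3 and FH replicate 1.

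VIT_08s0040g01230 was at 11.3, 17.4 and 9.43 CPM in C and 5.30, 12.4 and 3.78 CPM in F, against 2.70, 3.10 and 4.6 CPM in H and 5.73, 0.870 and 4.41 CPM in FH (log2 fold change -1.40, SE 0.38, adjusted p = 0.048, edgeR). It had been called lower at T3 as well (-1.42, SE 0.39, adjusted p = 0.018), a call lost without T3 C replicate 2, H replicate 1, FH replicate 2 or F replicate 3. VIT_05s0020g03150, one of the abundant members, came close, from 552 CPM in C to 336 CPM in H (-0.60, SE 0.17, adjusted p = 0.056). Of the members that leaned upwards at T4, VIT_11s0016g02980 had the lowest p, with a log2 fold change of 1.31 (SE 0.45, adjusted p = 0.12, edgeR), and it was followed by VIT_00s0324g00050, VIT_05s0029g00480, VIT_02s0025g00700 and VIT_05s0049g00010, which were not called.

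**Figure D5:**
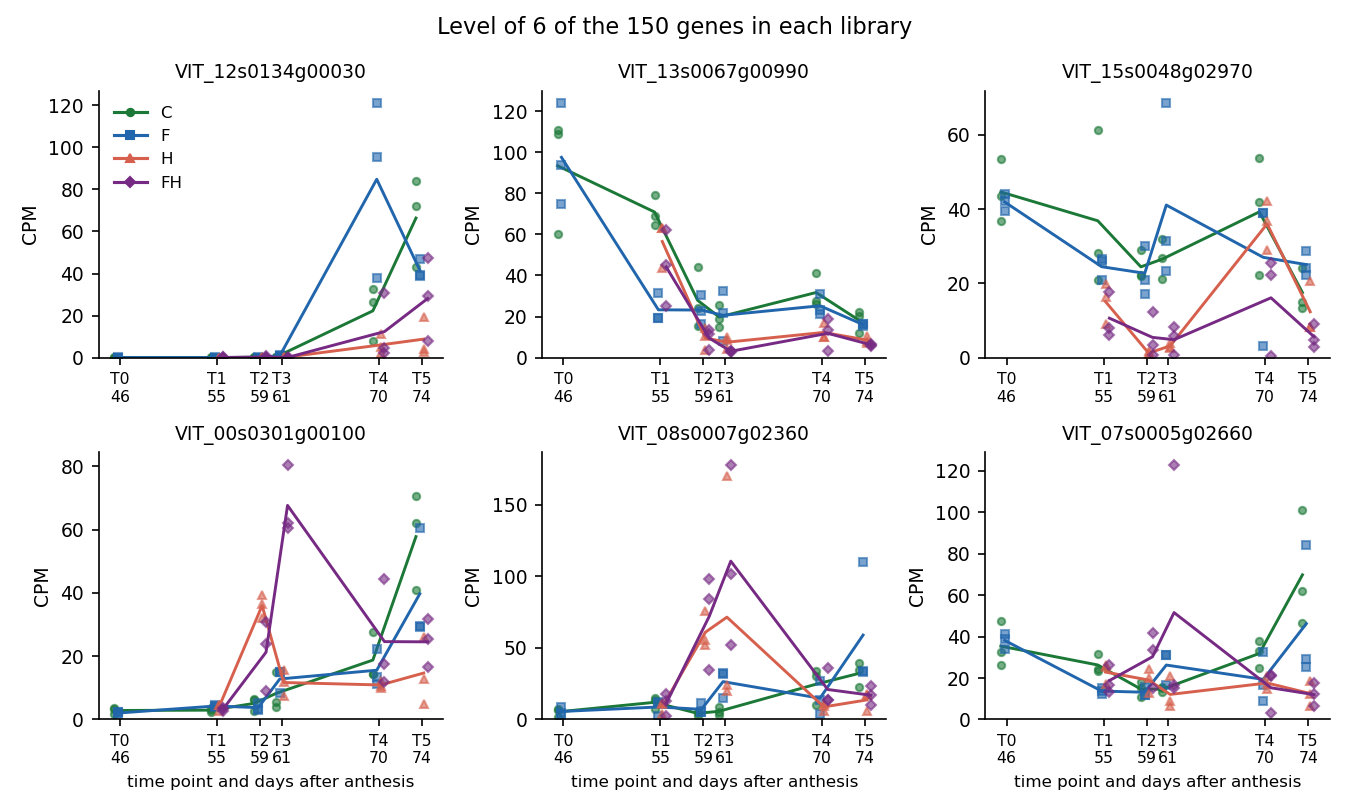
CPM (vertical axes) of 6 of the 150 genes in each library against time point and days after anthesis (horizontal axes), with lines through the group means, coloured by treatment. VIT_12s0134g00030 appears at T4, VIT_13s0067g00990 and VIT_15s0048g02970 are low in H and FH at T2 and T3, and VIT_00s0301g00100 and VIT_08s0007g02360 are high in them at T2.

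Split by spring flooding, H over C at T4 had a median log2 fold change of -0.74 over the 150 genes, with 141 of them negative, and FH over F had a median of -0.23 with 103 negative. In H over C, 2 genes were called lower, VIT_18s0001g02480 and VIT_09s0002g03410, named after their values were seen, where 0.234% of the 11959 genes were called. At an unadjusted p under 0.05, 52 members were lower, 34.7%, against 8.76%. In FH over F the number called lower was 0 (edgeR, with 12 or 8% at an unadjusted p under 0.05 against 4.06%, and 1 with DESeq2), and 1 was called higher, where 0.0167% and 0.0669% of the 11959 genes were called. That gene was VIT_11s0016g02980, at 0.686, 1.11 and 1.5 CPM in F and 1.24, 18.6 and 8.24 CPM in FH (log2 fold change 3.24, SE 0.67, adjusted p = 0.023, edgeR).

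The difference between these 2 effects was tested as an interaction. It called 0 of the 150 genes (edgeR, and 1 higher by DESeq2), where 0.00836% of the 11959 genes were called higher, and its median over the members was 0.54. At an unadjusted p below 0.05, 24 members (16%) were higher and 1 (0.667%) was lower in the same edgeR test, against 4.56% and 3.61% of the 11959 genes. These counts, and the medians of FH over F and of the interaction, include F replicate 3 and FH replicate 2, the lowest libraries at T4. The calls in H over C were 0 or 1 without any one of the 6 libraries. In FH over F, 5 genes were called lower without FH replicate 1, and the gene called higher was lost without FH replicate 2 or any 1 of the 3 F libraries.

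The shift between the heatwave and the recovery was tested directly, as the stress effect at T4 minus that at T2. It was negative in 119 of the 150 genes with a median of -0.48. In this test 20 genes were called lower and 5 higher, 13.3% and 3.33% of the members, where 3.31% and 4.97% of the 11959 genes were called. Among the strongest were VIT_00s0301g00100 (-2.72, SE 0.46, adjusted p = 0.00024, edgeR), VIT_08s0007g02360 (-4.05, SE 0.71, adjusted p = 0.00037) and VIT_02s0025g00700 (-2.92, SE 0.64, adjusted p = 0.0033). In the other direction, VIT_05s0094g00920 (2.99, SE 0.67, adjusted p = 0.0037) and VIT_15s0048g02970 (2.71, SE 0.72, adjusted p = 0.014) were closer to the controls at T4 than at T2. The latter was at 29.0, 42.2 and 36.8 CPM in H at T4, within the range of the C libraries (22.3 to 53.6 CPM), but at 22.3, 0.387 and 25.6 CPM in FH against 39.0, 38.8 and 3.18 CPM in F. The count of 20 was 15 to 29 with single libraries left out. The count of 5 was 2 without T2 H replicate 2 or 3, T2 FH replicate 3, T2 F replicate 2, T4 C replicate 3 or T4 H replicate 3, 3 without T2 C replicate 2, T4 C replicate 1, T4 FH replicate 1 or 3 or T4 F replicate 3, and 8 without T4 F replicate 2.

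By their calls at T2 and T3 the members fall into 22 that were lower, 24 that were higher and 104 that were neither. The median log2 fold change at T4 was -0.56 in the first, -0.32 in the second and -0.40 in the third, with 21, 18 and 98 genes negative. Their median L was -1.23, -1.40 and -1.28, all within the range that the choice of genes set. Of the 22 lower genes 13 had their highest C mean at T0, and of the 24 higher ones 21 had it at T5. In C from T0 to T4, 2 of the 22 rose and 9 fell, whereas 16 of the 24 rose and 2 fell.

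Read by their course in C, the 71 genes that rose from T0 to T4 counted 2 lower and 14 higher calls at T2, with a median stress effect of 0.21. The 25 that fell counted 8 lower and 1 higher, with a median of -0.55. At T3 the 71 counted 0 lower (edgeR) and 11 higher, and the 25 counted 5 lower and 2 higher. These classes were formed after the calls were seen and carry no test. Neither they nor the classes by calls at T2 and T3 were counted over the 11959 genes. Whether other genes that rose or fell in C were called in like proportion was not tested.

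Some members were neighbours in ID order on a scaffold. The longest run was 4 genes within 5, VIT_19s0015g00010, VIT_19s0015g00020, VIT_19s0015g00040 and VIT_19s0015g00050, and 6 pairs lay within 2 or 3 genes of each other. The 4 genes shared a rise in C and a lower level in H at harvest, at unequal level. In C they rose from 4.88, 25.1, 1.71 and 148 CPM at T0 to 27.8, 196, 9.81 and 429 CPM at T5, and in H they were at 8.33, 53.0, 3.31 and 134 CPM at T5. They did not move alike throughout. In F from T0 to T1, VIT_19s0015g00050 fell from 128 to 75.8 CPM while VIT_19s0015g00020 rose from 22.2 to 32.4 CPM. All 4 were called higher in C at T4 over T0, by 1.96 (SE 0.49), 2.20 (SE 0.55), 2.14 (SE 0.61) and 1.15 (SE 0.44) on the log2 scale. The most abundant, VIT_19s0015g00050, was at 178, 339 and 339 CPM in C and 102, 121 and 151 CPM in H at T4 (stress effect -0.87, SE 0.31, adjusted p = 0.13, edgeR).

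Of the next run, VIT_03s0038g02130 had C means of 66.1 CPM at T0 and 74.3 CPM at T5, and VIT_03s0038g02140 of 0.935 and 11.8 CPM. At T4 the latter was at 9.21, 6.96 and 5.70 CPM in C and 0.899, 1.67 and 1.29 CPM in H, although the stress effect was not called (-1.82, SE 0.55, adjusted p = 0.075, edgeR). Neighbours did not always move alike. VIT_08s0007g02360, called higher at T2 and T3, lies close to VIT_08s0007g02380, which held 9.08 to 11.1 CPM in the means of all 4 groups at T2. By chromosome, 15 members were on chromosome 18 (10.0% against 7.63% of the 11959 genes), 13 on chromosome 7 (8.67% against 5.9%), 10 on chromosome 3 (6.67% against 3.9%) and 2 on chromosome 10 (1.33% against 2.88%), which was not tested.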

How the data were processed

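Berry RNA was read as stranded single-end libraries. The authors aligned the reads with TopHat to a revised 12X grape genome and kept uniquely mapping reads. Their notes name Trimmomatic 0.39 and featureCounts, whereas the paper states no trimming and Bedtools coverage. The deposited values are whole-number counts per gene row, not normalized, and the 300 rows that share 149 IDs were summed here. IDs of the paper carry a further digit, which was removed to join them. None of 29591 reference genes carries an ID of the table, so names come from the study alone.

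CPM was computed from column totals. Counts of 19553 genes (at least 0.5 CPM in 3 libraries) were fitted in R 4.3.3 with edgeR 4.0.16 (TMM, robust quasi-likelihood, a mean per group over 66 libraries, common dispersion 0.0763), with Benjamini-Hochberg adjustment over all genes, and the script was tested on simulated data. SE is the log2 fold change divided by the root of F. Named are members the study annotates (1 is not reported here but stays in all counts), the 10 lowest L, the 10 most abundant, the lowest p in each direction (5 at T4, 3 at T2 and at T3), the genes at the limit and the 2 longest runs. Alternatives were DESeq2 1.42.0, RLE, no filter, own time points, replicate block, rows kept apart and each library left out. The members, lists and tests were chosen with earlier results of these data known. The study's methods describe separate vines as replicates.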

Additional observations from a re-analysis of the deposited data

Results flagged for a closer look

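The stress effect at T4 differed from that at T2 in 20 members called lower and 5 called higher (edgeR). Among the named members, the difference of the 2 effects on the log2 scale was -3.0 for the GA2-oxidase VIT_10s0003g03490, -1.70 for VIT_04s0023g02900, -4.33 for VIT_02s0087g00750, -2.67 for VIT_08s0007g04570, -1.20 for VIT_19s0015g01890, -2.92 for VIT_02s0025g00700, -2.72 for VIT_00s0301g00100 and -4.05 for VIT_08s0007g02360. It was 2.99 for VIT_05s0094g00920 and 2.71 for VIT_15s0048g02970.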

How the results depend on the processing

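Counts of members called moved most in recovery. Here and above, counts under other fits are given without the share of all genes called in the same fit. Whether a change in them is particular to the members was not tested. The 4 members lower at T4 became 0 with a replicate block, 0 when libraries of T4 alone were fitted and 13 with DESeq2, and the 2 lower in H over C became 0, 0 and 10, and 0 with no filter on low counts. With the block and with T4 alone, the 1 member higher in FH over F became 0 in each, and DESeq2 called 1 lower. DESeq2 called 5 members higher at T1 and 1 in the interaction at T4. The 5 members higher at T4 minus T2 were 3 with the block and 2 with the libraries of those times alone. With single libraries left out, members called ranged from 0 to 1 lower and 1 to 3 higher at T1, from 8 to 20 lower and 9 to 16 higher at T3, from 0 to 20 lower and 0 to 1 higher at T4, from 0 to 1 lower in H over C, from 0 to 5 lower and 0 to 1 higher in FH over F, from 0 to 1 higher in the interaction, and from 2 to 8 higher at T4 minus T2. The cause was not tested. No change of direction occurred among 37 calls of named genes, of which DESeq2 kept 37, no filter 35, the block 32 and the fit of single times 27, and those at T4 were lost with the latter 2. Leaving out single libraries kept 371 of 444. Replicate numbers showed no steady pairing of the libraries beyond T0. At T1 to T5 the median correlation was -0.09 to 0.07 between libraries of one number and -0.01 to 0.07 between other numbers. Of 18 correlations between libraries of one number, 3 to 9 exceeded 0.1. The 9 were at T2, where the highest was 0.59, so pairing at T2 is not excluded. Choosing the genes by H minus C alone kept 89 of the 150 and by FH minus F alone 85, while leaving out single harvest libraries kept 116 to 141. Averaging T5 F replicates 1 and 2, an alternative chosen after seeing the data, kept 131.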

Other observations

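The study's 5 qPCR reference genes all had L above 0 at harvest, from 0.15 to 1.86. VIT_17s0000g05580, with 1.86, ranked 11944 of the 11959 genes in order of L, at a mean of 28.4 CPM in unstressed berries, and none of the 5 was called in the stress effect at T1, T2, T3 or T4 (edgeR).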
